A study of Homo sapiens with 6 samples.

Results

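The genes described here encode the machinery of MHC class I antigen presentation. They are the 9 genes HLA-B, HLA-C, HLA-E, HLA-F, B2M, TAP1, TAP2, ERAP1 and NLRC5, picked by symbol out of 27942 genes in the deposited count table, and each had a single identifier there. The RNA came from HCT116, a human cell line of colorectal carcinoma with wild-type p53. Cells were either left untreated (NT) or kept in 0.5 µM oxaliplatin for 24 h (OXA), and each group has 3 libraries. Both groups were the same unmodified line in RPMI medium with 10% bovine fetal serum, and oxaliplatin, a platinum compound that forms DNA adducts, was the only agent that set them apart. On antibiotics the sources differ: Pen/Strep is given in the labels, and the paper states that none were added. Neither the labels nor the paper's methods say whether the 3 libraries of a group came from separate cultures, so p-values measure the spread between these libraries, which may be technical. The comparison asked how the RNA of each gene differed between OXA and NT at this single dose and time.

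MHC class I molecules carry peptides from inside the cell to its surface, where cytotoxic T cells inspect them. The proteasome cuts proteins into peptides, the TAP1 and TAP2 proteins together form the transporter that pumps these peptides into the endoplasmic reticulum, and ERAP1 trims them there. A loading complex then fits them onto a heavy chain (an HLA protein) bound to the light chain beta-2-microglobulin, the product of B2M. NLRC5 is a transactivator that drives transcription of class I genes through a promoter module that binds the RFX, CREB/ATF and NF-Y factors. In epithelial cells, these genes are known for their induction by interferon gamma, and their loss is a known route by which colorectal tumours escape T cells.

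Raw counts summed to between 32979521 and 40967880 per library, and 9 of 9 members passed the filter on low counts, which left 13727 genes to test. Normalized counts are raw counts scaled by 1 TMM factor per library, given as mean ± SD with n = 3, and fold changes are OXA over NT. The ± after a log2 fold change is its standard error. Positions of genes are those of GENCODE on GRCh38. With edgeR's quasi-likelihood test and an adjusted p under 0.05, OXA had 381 genes higher and 315 lower. Scaling by upper-quartile factors gave 348 and 493, and scaling by library totals 350 and 511. The p53 targets CDKN1A, MDM2 and TP53I3, taken as a check of the treatment, were all higher in OXA, with log2 fold changes from 2.22 to 2.93. The epithelial markers EPCAM, KRT8 and KRT18 had at least 8451 raw counts in every library, whereas CDX1 was at 0 and LGALS4 did not exceed 3 counts. Normalized counts of the 10 epithelial markers summed to between 73196 and 99193 in NT and between 105382 and 118042 in OXA, and 0 of 8 tested passed. In the replicate-block fit, KRT8, KRT18 and CLDN4 were higher and CDH1 lower, with log2 fold changes of 0.50, 0.32, 0.52 and -0.20 (edgeR adjusted p from 0.0184 to 0.0408). The part of these shifts in the results was not tested. Of 10 fibroblast and endothelial markers 2 were tested and 0 passed. Of 12 leukocyte markers, 0 passed the filter on low counts. Their normalized counts summed to between 24.9 and 36.8 in NT and between 25.1 and 32.97 in OXA, with MS4A1 and FCGR3A at 0 and PTPRC at 2 raw counts at most.

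The first NT library stood apart in a way that touches these genes. Over the upper quartile of tested genes by GC content of the transcript (at least 57.0%), the median log2 deviation from a gene's mean over the 6 libraries was -0.60 in NT1 and lay between -0.079 and 0.31 in the other libraries. HLA-B, HLA-C, HLA-F, TAP1 and NLRC5 are among those genes, at 57.4% to 60.1% GC, and HLA-E is close to them at 55.1%. B2M (39.1%) and ERAP1 (43.3%) have the lowest GC content of the members. Of the 9 genes, 7 were lower in NT1 than in the other NT libraries, and 6 of these were also lowest in OXA1 among the OXA libraries. NT and OXA libraries of the same number deviated together across all tested genes, so a fit with the number as a block was made too, and values without NT1 or without these GC trends are given where they matter.

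In untreated cells, the light chain was by far the most abundant member. Levels of different genes are compared here as CPM per kilobase of canonical transcript. B2M stood at 305 ± 24.7 in NT, ahead of HLA-C at 107 ± 30.1 and HLA-B at 77.7 ± 16.3, whose ranges overlapped. HLA-E, a heavy chain that presents leader peptides of other class I chains to natural killer cell receptors, followed at 47.1 ± 10.6, with each of its NT libraries below each of HLA-B. The transporter genes were lower, with TAP1 at 16.4 ± 3.20 and TAP2 at 12.5 ± 1.42, again with overlapping ranges. ERAP1 at 4.12 ± 0.429 and HLA-F, a heavy chain mostly found inside the cell, at 3.44 ± 1.48 also overlapped. NLRC5 was the lowest of all, at 0.728 ± 0.188. In OXA the order of the means was the same, but HLA-C no longer overlapped HLA-B, and TAP1, at 32.5 ± 3.10, no longer overlapped TAP2, at 13.9 ± 0.342.

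**Figure D1:**
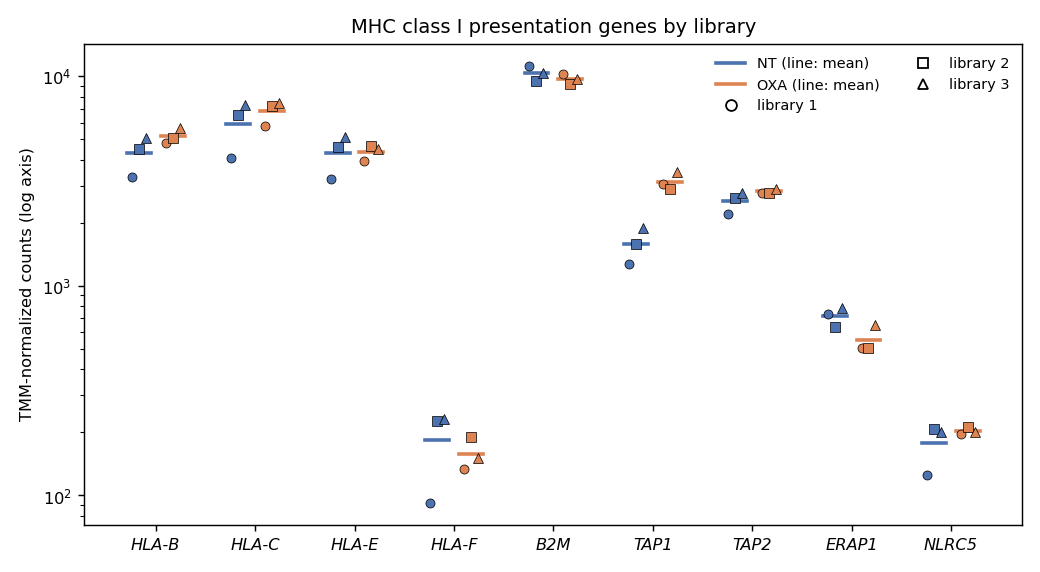
TMM-normalized counts (log axis) of the 9 genes in each of the 3 NT and 3 OXA libraries, with symbols for the library number and a line for the group mean. The OXA libraries of TAP1 lie between 2887 and 3472, all above the NT libraries, whereas the groups of the other genes overlap or, for TAP2, nearly touch.

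TAP1 was the member that rose with oxaliplatin. In this comparison, 1 of the 9 genes was higher in OXA at an adjusted p under 0.05, where 2.78% of all tested genes were, and 0 were lower, where 2.29% were (5.07% in either direction). The unadjusted p was under 0.05 for 2 members, TAP1 and ERAP1, or about the share of all tested genes (21.7%). DESeq2 also called 1 member higher, TAP1, and 0 lower, where it called 4.48% and 4.23% of its genes. The median log2 fold change of the 9 genes was 0.16, beside 0.023 over all genes tested. The groups did not overlap in 2 members, TAP1 and TAP2, both higher in OXA, which held for 14.5% of tested genes. The reverse held for 0 members and for 14.4% of tested genes. In RNA from whole cultures, fewer cells that express a gene and less of its RNA per cell cannot be told apart.

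**Figure D2:**
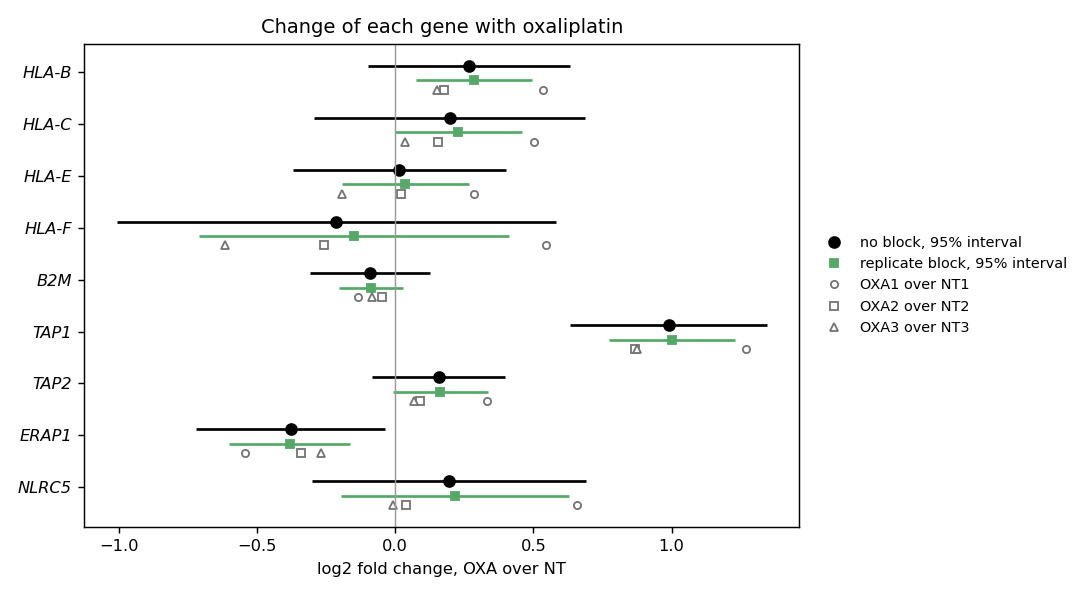
Log2 fold change of each gene, OXA over NT, with its 95% interval in the fit without a block (black) and with the replicate block (green), and the ratio within each pair of libraries of the same number (open symbols). The interval of TAP1, from 0.63 to 1.34 without the block, lies far from 0, and the open circles of pair 1 are the farthest to the right for the 4 heavy chains, TAP1, TAP2 and NLRC5.

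TAP1 (ENSG00000168394, chr6:32845209-32853816 on the minus strand of GRCh38, in the MHC region) encodes the first subunit of the peptide transporter. Its normalized counts were 1275, 1581 and 1894 in NT libraries 1 to 3 and 3069.5, 2887 and 3472 in OXA libraries 1 to 3. The lowest OXA library was thus well above the highest NT library, and TAP1 was higher in 3 of 3 same-numbered pairs. The means were 1583 ± 309 and 3143 ± 299, a 1.99-fold difference (log2 fold change 0.99 ± 0.15, adjusted p = 0.0150 by edgeR, 95% interval 0.63 to 1.34). The size of the change depended little on the library left out, with log2 fold changes from 0.86 to 1.11. The call did depend on it: the edgeR adjusted p was 0.00375 without NT1 and 0.0295 without NT3, but 0.0545 without NT2, 0.0773 without OXA1, 0.0556 without OXA2 and 0.0763 without OXA3. With the GC and length trends of each library removed, the log2 fold change was 0.91 (adjusted p = 0.000982 by edgeR). A test against a 1.5-fold change did not call TAP1 (edgeR adjusted p = 0.310).

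The genes whose log2 CPM followed TAP1 most closely over the 6 libraries were COL17A1 (Pearson r = 0.999), PROCR (0.997) and TTC9C (0.996). These are a collagen of epithelial anchoring junctions, the endothelial protein C receptor and a gene with TPR repeats. Such values describe 6 libraries that share 2 group levels, with log2 fold changes of 1.39, 0.95 and 0.38.

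TAP1 shares its promoter region with PSMB9, which starts on the opposite strand with 487 bases between both starts and encodes a catalytic subunit of the immunoproteasome, the proteasome form tuned to antigen processing. TAP1 passed the test and PSMB9 did not, and the difference between them was not tested. PSMB9 had 151, 235 and 214 normalized counts in the NT and 131, 158 and 182 in the OXA libraries. Its groups overlapped, with a lower mean in OXA (log2 fold change -0.35 ± 0.22, adjusted p = 0.404 by edgeR, 95% interval -0.85 to 0.15). With the replicate block alone PSMB9 did not pass (edgeR adjusted p = 0.118). With the block and the GC and length trends removed it was lower (log2 fold change -0.43, edgeR adjusted p = 0.0135), in a fit that called 18.6% of all tested genes lower. The GENCODE spans of TAP1 and PSMB9 overlap on opposite strands, and since the strand setting of the counting is not given in the sources used here, reads from the overlap may have been counted for either. PSMB8, the other immunoproteasome gene of this cluster, was near the filter, with 10, 19 and 16 raw counts in the NT and 8, 15 and 10 in the OXA libraries (edgeR adjusted p = 0.632).

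The 250 bases before the transcription start are shown for TAP1 and PSMB9, which share a region and of which TAP1 alone passed the test, and for TAP2, B2M and HLA-B, members that did not pass it, for comparison. The sequences are those of RefSeq on GRCh38.p14, printed 5′ to 3′ on each gene's own strand up to the base before the start. They lie at chr6:32853705-32853954 (minus strand) for TAP1, chr6:32853942-32854191 (plus) for PSMB9, chr6:32838740-32838989 (minus) for TAP2, chr15:44711267-44711516 (plus) for B2M and chr6:31357180-31357429 (minus) for HLA-B. Capitals mark matches on either strand to 6 motifs: the interferon-stimulated response element (ISRE, GAAA and GAAA with 2 bases of any kind between them), the gamma-activated site (GAS, TTCNNNGAA), the NF-kB consensus, the p53 decamer, the CCAAT box that NF-Y binds, and the GC box (GGGCGG).
TAP1: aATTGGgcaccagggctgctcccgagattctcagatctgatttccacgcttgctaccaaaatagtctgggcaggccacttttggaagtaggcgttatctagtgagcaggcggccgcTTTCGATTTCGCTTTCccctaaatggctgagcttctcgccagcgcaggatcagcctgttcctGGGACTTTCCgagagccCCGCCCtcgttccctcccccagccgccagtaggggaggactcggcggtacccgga
PSMB9: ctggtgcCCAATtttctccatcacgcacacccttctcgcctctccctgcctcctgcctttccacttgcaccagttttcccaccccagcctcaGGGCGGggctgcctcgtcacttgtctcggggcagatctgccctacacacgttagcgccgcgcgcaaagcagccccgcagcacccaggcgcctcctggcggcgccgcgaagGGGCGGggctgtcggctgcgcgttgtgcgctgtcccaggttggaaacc
TAP2: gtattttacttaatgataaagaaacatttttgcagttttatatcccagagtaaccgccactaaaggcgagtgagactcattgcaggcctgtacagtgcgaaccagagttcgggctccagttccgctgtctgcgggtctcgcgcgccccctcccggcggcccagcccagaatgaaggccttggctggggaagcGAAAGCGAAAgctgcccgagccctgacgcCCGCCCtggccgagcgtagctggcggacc
B2M: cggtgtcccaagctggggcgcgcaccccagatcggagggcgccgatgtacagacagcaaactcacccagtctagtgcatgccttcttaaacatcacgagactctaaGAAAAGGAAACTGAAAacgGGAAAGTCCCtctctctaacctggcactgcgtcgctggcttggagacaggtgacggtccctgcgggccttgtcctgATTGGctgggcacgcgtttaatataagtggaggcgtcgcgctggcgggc
HLA-B: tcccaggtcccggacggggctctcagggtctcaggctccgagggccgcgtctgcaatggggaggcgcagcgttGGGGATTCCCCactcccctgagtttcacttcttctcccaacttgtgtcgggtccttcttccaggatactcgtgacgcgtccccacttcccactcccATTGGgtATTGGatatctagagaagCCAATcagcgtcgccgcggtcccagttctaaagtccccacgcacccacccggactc

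The TAP1 window held 2 overlapping ISRE matches, TTTCGATTTC and TTTCGCTTTC, at positions -134 and -128, counted back from -1 at the base before the start, and an NF-kB match (GGGACTTTCC) at -72. The ISRE occurred in 3.02% and the NF-kB consensus in 9.96% of 35116 promoter windows of the same length. The PSMB9 window held neither, only a CCAAT box and GC boxes, motifs present in 32% and 42.6% of the windows. It shares only 13 bases with the TAP1 window. The ISRE and NF-kB matches of TAP1 lie between both starts but beyond those bases, so the PSMB9 window could not contain them. B2M, whose RNA did not pass the test, also held 2 overlapping ISRE matches and an NF-kB match, TAP2 held an ISRE match, and HLA-B held 2 overlapping NF-kB matches. None of these 5 windows matched GAS or the p53 decamer, found in 6.57% and 5.57% of windows. Among other windows scanned, PSMB8 held a GAS match, PSMB10 a p53 decamer and an ISRE match, and HLA-F an ISRE match. The windows of HLA-C, ERAP1 and RFX5 held no match to ISRE, GAS or the p53 decamer. Sequence farther upstream or after the start was not searched, so sites there would have been missed. A match describes letters in the reference and not a bound site. Promoter windows were matched for 7 of the 9 members.

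TAP2 (ENSG00000204267, chr6:32821833-32838739), the second transporter subunit, lies beside TAP1 and PSMB8 in the same cluster. It had 2208, 2614 and 2763 normalized counts in the NT and 2779.6, 2780.3 and 2900.2 in the OXA libraries. The groups did not overlap, but they were separated by less than 1% of the level, and the difference did not pass the test (log2 fold change 0.16 ± 0.10, adjusted p = 0.435 by edgeR, 95% interval -0.083 to 0.40). Of the windows of 100 bases in the canonical TAP2 transcript, 34.7% also occur in a readthrough gene, listed as AL669918.1. That gene had 0, 39 and 4 raw counts in the NT and 0, 95 and 22 in the OXA libraries, so few reads were assigned to it. The ratio of TAP1 to TAP2 raw counts was 0.577, 0.605 and 0.685 in NT and 1.10, 1.04 and 1.20 in OXA. All 3 OXA libraries thus had more TAP1 than TAP2 counts and all 3 NT libraries fewer. These raw counts are not scaled for transcript length (2685 bases for TAP1 and 5643 for TAP2), so a ratio of 1 does not mean equal levels. Per kilobase, the TAP1 mean was above that of TAP2 in NT too, at 16.4 against 12.5 CPM. The log2 ratio was higher in OXA by 0.84 (exact permutation test, two-sided p = 0.1, the smallest that 3 against 3 libraries can give).

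The classical heavy chains HLA-B and HLA-C, which present peptides to T cells and serve as ligands of natural killer cell receptors, did not pass the test. HLA-B (ENSG00000234745, chr6:31353872-31367067) had 3313, 4487 and 5082 normalized counts in the NT and 4795, 5069 and 5641 in the OXA libraries. Only the first of the NT libraries was well below the OXA range, and the groups overlapped (log2 fold change 0.27 ± 0.16, adjusted p = 0.380 by edgeR, 95% interval -0.098 to 0.63). HLA-C (ENSG00000204525, chr6:31268749-31272130) had 4066, 6508 and 7257 in NT and 5756, 7242 and 7443 in OXA (log2 fold change 0.20 ± 0.21, adjusted p = 0.646 by edgeR, 95% interval -0.29 to 0.69). For HLA-C, the third NT library exceeded the first and second OXA libraries. Both genes were higher in OXA in 3 of 3 same-numbered pairs, with log2 ratios of 0.53, 0.18 and 0.15 for HLA-B and 0.50, 0.15 and 0.037 for HLA-C. Without NT1, the log2 fold change was 0.11 for HLA-B and -0.014 for HLA-C, and with GC and length trends removed it was 0.12 and 0.043. In the fit with both the block and the removal of these trends, HLA-B passed (log2 fold change 0.12, edgeR adjusted p = 0.0210), and so did TAP2 (log2 fold change 0.21, edgeR adjusted p = 0.0109). That fit called 26.4% of all tested genes higher and 18.6% lower, 45.0% in all.

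The non-classical heavy chains gave no call under any setting. HLA-E (ENSG00000204592, chr6:30489509-30494194) had 3249, 4582 and 5132 normalized counts in the NT and 3959, 4651 and 4487 in the OXA libraries. The group means were nearly equal, at 4321 ± 969 and 4366 ± 362 (log2 fold change 0.015 ± 0.17, adjusted p = 0.974 by edgeR, 95% interval -0.37 to 0.40). Its sign turned under several settings, upper-quartile factors and library totals among them, and on leaving out NT1, OXA2 or OXA3. HLA-F (ENSG00000204642, chr6:29722775-29738528) was low, with 90, 218 and 253 raw counts in the NT and 124, 174 and 169 in the OXA libraries. The first NT library had fewer counts than any OXA library and the other NT libraries had more (log2 fold change -0.21 ± 0.34, adjusted p = 0.774 by edgeR, 95% interval -1.01 to 0.58). Without NT1 its log2 fold change was -0.53 (adjusted p = 0.113 by edgeR).

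Near-identical heavy chain genes can share reads, and HCT116 carries its own HLA alleles, so the split of counts among them is uncertain. In the reference, 2.56% of 50-base windows of HLA-B, 6.76% of HLA-C, 6.16% of HLA-E and 1.89% of HLA-F occur in a transcript of another gene, and 0% to 0.612% of 100-base windows do. Summed, the 4 genes had 10720.3, 15804 and 17703 normalized counts in the NT and 14644, 17152 and 17722 in the OXA libraries. The sum did not pass the test (log2 fold change 0.14 ± 0.18, adjusted p = 0.720 by edgeR), and without NT1 its log2 fold change was -0.021.

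**Figure D3:**
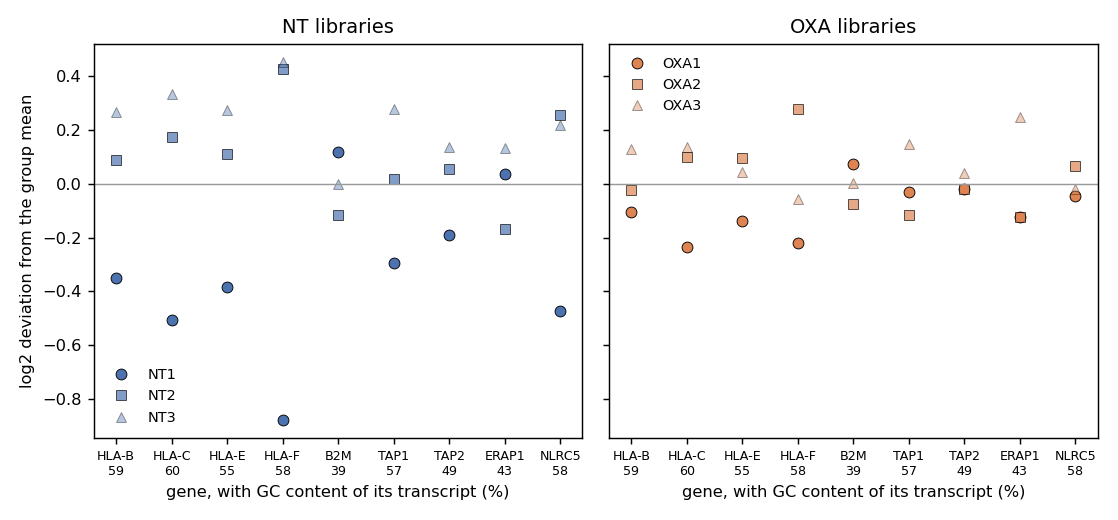
Log2 deviation of each library from the mean of its group, for each gene, in the NT (left) and OXA (right) libraries, with the GC content of the transcript under each name. NT1 lies lowest of the NT libraries for 7 genes, down to -0.88 for HLA-F, and highest for B2M.

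B2M (ENSG00000166710, chr15:44711358-44718851, on chromosome 15 and thus outside the MHC region) encodes the light chain that class I heavy chains generally need to reach the surface. It had 11203, 9528 and 10311 normalized counts in the NT and 10206, 9224 and 9725 in the OXA libraries, with overlapping groups. B2M was lower in OXA in 3 of 3 same-numbered pairs, by a small amount that did not pass the test (log2 fold change -0.090 ± 0.093, adjusted p = 0.632 by edgeR, 95% interval -0.31 to 0.13). The interval leaves room for a fold change between 0.809 and 1.09. The summed heavy chain counts per B2M count were 0.957, 1.66 and 1.72 in NT and 1.43, 1.86 and 1.82 in OXA. The log2 ratio differed by 0.28 (exact permutation test, two-sided p = 0.5, which ignores the pairing), and without NT1 by 0.0056. Within same-numbered pairs, the log2 ratio was higher in OXA in 3 of 3, by 0.58, 0.16 and 0.086.

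ERAP1 (ENSG00000164307, chr5:96760810-96808100), the aminopeptidase that trims peptides in the endoplasmic reticulum, was the member with the largest difference towards lower values. Library by library, it had 733, 636 and 783 normalized counts in NT and 503, 503 and 649.5 in OXA. The third OXA library was above the second NT library, so the groups overlapped, but each OXA library was below the NT library of its number. The means were 717 ± 74.7 and 552 ± 84.7 (log2 fold change -0.38 ± 0.15, adjusted p = 0.191 by edgeR, 95% interval -0.72 to -0.035), and the difference did not pass the test. In the replicate-block fit ERAP1 was lower in OXA (log2 fold change -0.38, adjusted p = 0.0313 by edgeR), where 10.9% of all genes tested were lower and 12.1% higher. Among the members, that fit gave 1 gene higher, TAP1, and 1 lower. ERAP1 also passed when the GC and length trends were removed along with the block (log2 fold change -0.28, edgeR adjusted p = 0.00465), but not when they were removed without it (log2 fold change -0.27, edgeR adjusted p = 0.134). Of 6 other genes for enzymes that cut or trim peptides, 6 were tested and 0 passed in either fit. An unadjusted p under 0.05 was reached by 0 of them, and DESeq2 called 0.

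NLRC5 (ENSG00000140853, chr16:56989485-57083531) was the least abundant member per length, with 122, 199 and 221 raw counts in the NT and 182, 195 and 225 in the OXA libraries. After normalization the OXA libraries lay between 197 and 213, and NT1, at 125, was far below NT2 and NT3, at 207 and 202 (log2 fold change 0.19 ± 0.21, adjusted p = 0.658 by edgeR, 95% interval -0.30 to 0.69). Without NT1 the log2 fold change was -0.0062.

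Among the 8 genes for the RFX, CREB/ATF and NF-Y factors that bind the class I promoter module, 8 were tested, 1 rose and 0 fell. Of all tested genes, 2.78% rose and 2.29% fell. The median log2 fold change of these 8 genes was 0.070. The gene that rose was RFX5, the DNA-binding subunit of the RFX complex. RFX5 had 2041, 2161 and 2333 normalized counts in the NT and 3306, 3091 and 3165 in the OXA libraries, without overlap (log2 fold change 0.55 ± 0.088, adjusted p = 0.0174 by edgeR). With 1 library left out, it passed in 1 fit of 6, the one without NT1, and its edgeR adjusted p was at most 0.110 in the others. The other RFX subunit genes did not pass. RFXAP had 167 ± 36.4 normalized counts as the NT mean and 111 ± 8.99 as the OXA mean (log2 fold change -0.59 ± 0.20, adjusted p = 0.143 by edgeR), and RFXANK had 761 ± 231 and 1053 ± 163 (log2 fold change 0.47 ± 0.24, adjusted p = 0.305 by edgeR). In the replicate-block fit, RFX5 was higher again (edgeR adjusted p = 0.00609) and so was RFXANK (log2 fold change 0.50, adjusted p = 0.0330 by edgeR). CREB1 (log2 fold change -0.31, adjusted p = 0.0165 by edgeR) and the NF-Y subunit gene NFYB (log2 fold change -0.39, adjusted p = 0.0204 by edgeR) were lower in it.

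The lists of other antigen presentation genes held 74 genes, of which 70 were tested. Over these lists, 4 genes rose and 1 fell, or 7.14% of the 70, where 5.07% of all tested genes were called. The median log2 fold change of the lists was 0.026. In the replicate-block fit, 13 were higher and 8 lower, or 30% of the 70, where 23.0% of all tested genes were called. The 5 genes called without the block, PSMB5, PSMB6, RFX5, MR1 and HLA-DPB1, each passed when NT1 was left out and in none of the 5 fits without another single library, and kept their direction in all 6.

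Upstream of the transporter, 2 genes for standard catalytic proteasome subunits rose and 0 for the immunoproteasome did, where 2.78% of all tested genes rose. Of the 3 standard subunit genes, PSMB5 (log2 fold change 0.44 ± 0.094, adjusted p = 0.0413 by edgeR) and PSMB6 (log2 fold change 0.51 ± 0.10, adjusted p = 0.0314 by edgeR) rose, and PSMB7 did not pass (log2 fold change 0.39 ± 0.091, adjusted p = 0.0547 by edgeR), though DESeq2 called it higher (adjusted p = 0.0317 by DESeq2). PSMB6 had 5109, 6061 and 6240.4 normalized counts in the NT and 8228, 7997 and 8649.8 in the OXA libraries. In none of these 3 genes did the groups overlap, and 14.5% of all tested genes were likewise higher without overlap. In the block fit 3 of 3 were higher, where 12.1% of all tested genes were. Of the 5 immunoproteasome and activator genes, 0 passed without the block, 1 had an unadjusted p under 0.05, DESeq2 called 0, and 3 had log2 fold changes below 0. PSMB10 had 141, 311 and 266 normalized counts in the NT and 269, 421 and 412 in the OXA libraries (log2 fold change 0.62 ± 0.31, adjusted p = 0.293 by edgeR), and PSME2 had 2572 ± 235 and 3124 ± 344 (log2 fold change 0.28 ± 0.11, adjusted p = 0.206 by edgeR). Both were higher in the block fit, with edgeR adjusted p of 0.0207 and 0.0213. PSME1, the partner of PSME2 in the activator, did not pass (log2 fold change -0.12 ± 0.15, adjusted p = 0.705 by edgeR). The difference between the lists was not tested.

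Downstream, of 8 genes for peptide loading and folding in the endoplasmic reticulum, 7 were tested and 0 passed. An unadjusted p under 0.05 was reached by 2 of the 7, beside 21.7% of all tested genes, and DESeq2 called 0. In the block fit, CALR (calreticulin, a chaperone of the loading complex; log2 fold change 0.26, adjusted p = 0.0153 by edgeR) and HSPA5 (the chaperone BiP; log2 fold change 0.25, adjusted p = 0.0240 by edgeR) were higher. Of 18 genes for interferon and NF-kB signalling, which induce class I genes, 18 were tested and 0 passed, with a median log2 fold change of 0.048. An unadjusted p under 0.05 was reached by 3 of the 18, beside 21.7% of all tested genes, and DESeq2 called 0. IRF1, the interferon-induced factor that acts on the ISRE of class I genes, had 648, 669 and 837 normalized counts in the NT and 666, 723 and 813 in the OXA libraries (log2 fold change 0.032, 95% interval -0.30 to 0.36). In the block fit, STAT3 was higher (log2 fold change 0.34, adjusted p = 0.0108 by edgeR) and the interferon receptor gene IFNAR2 was lower (log2 fold change -0.38, adjusted p = 0.0337 by edgeR).

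**Figure D4:**
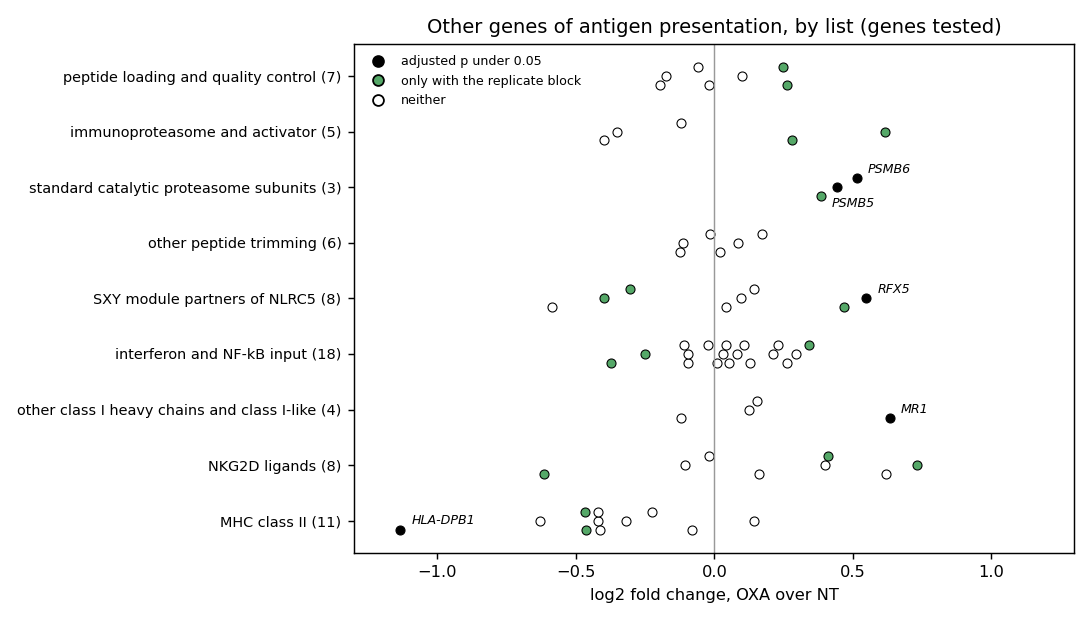
Log2 fold change, OXA over NT, of each tested gene of the lists of other antigen presentation genes, with the number tested beside the list's name. Black points are genes with an edgeR adjusted p under 0.05 and green points those that passed in the replicate-block fit alone. Of the 11 class II genes, all at low counts, 10 lie below 0 and 1 passed without the block. The median over all genes tested was 0.023.

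Among class I-like genes, MR1, which presents vitamin metabolites to MAIT cells, rose from 386, 365 and 409 normalized counts in NT to 610.2, 538 and 654 in OXA, without overlap (log2 fold change 0.64 ± 0.13, adjusted p = 0.0342 by edgeR). HFE, an iron regulator, did not pass (log2 fold change 0.15 ± 0.16, adjusted p = 0.636 by edgeR), and FCGRT, the neonatal Fc receptor, was low, with 12, 16 and 27 raw counts in the NT and 13, 17 and 19 in the OXA libraries. Of 8 genes for ligands of NKG2D, an activating receptor of natural killer cells, 8 were tested and 0 passed. An unadjusted p under 0.05 was reached by 4 of the 8, where 21.7% of all tested genes reached it, and DESeq2 called 2, RAET1E higher and ULBP1 lower, where it called 8.71% of its genes in all. In the block fit, MICA (log2 fold change 0.41, adjusted p = 0.0184 by edgeR) and RAET1E (log2 fold change 0.73, adjusted p = 0.0161 by edgeR) were higher and ULBP1 (log2 fold change -0.61, adjusted p = 0.00982 by edgeR) was lower. ULBP1 had 608, 534 and 466 normalized counts in the NT and 374, 350.0 and 326 in the OXA libraries.

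MHC class II genes, which present extracellular peptides and are active mainly in immune cells, were detected at low levels. Of 12 such genes 11 were tested, 0 rose and 1 fell, where 2.78% of all tested genes rose and 2.29% fell. The median log2 fold change of the 11 was -0.42, beside 0.023 over all genes tested. HLA-DPB1 had 40, 46 and 47 raw counts in the NT and 18, 19 and 22 in the OXA libraries (log2 fold change -1.13 ± 0.23, adjusted p = 0.0371 by edgeR). DESeq2 did not call it (adjusted p = 0.0838 by DESeq2). In the block fit, HLA-DRA (log2 fold change -0.47, adjusted p = 0.0419 by edgeR) and HLA-DMA (log2 fold change -0.47, adjusted p = 0.0330 by edgeR) were lower as well. CIITA, the class II counterpart of NLRC5, had 40, 39 and 45 raw counts in the NT and 29, 44 and 41 in the OXA libraries (log2 fold change -0.081, 95% interval -0.65 to 0.48).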

How the data were processed

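Polyadenylated RNA was sequenced as stranded libraries (2x100 bases). The submitters' processing notes list Trimmomatic 0.32, STAR 2.7.5b, RSEM 1.3.3 and DESeq2 2.13 with GRCh38. The annotation and strand setting of the counting are not given in the sources used here. The authors deposited whole-number raw counts, used as deposited, and a normalized signal, the raw count times a factor that differed between genes and libraries, used only in alternatives. Genes were filtered with filterByExpr (minimum count 10, minimum total 15) and tested by edgeR's quasi-likelihood test after TMM (R 4.3.3 with edgeR 4.0.16; DESeq2 1.42.0 and voom of limma 3.58.1 in alternatives). The threshold was a Benjamini-Hochberg adjusted p of 0.05 over 13727 genes. Standard errors were the estimate over the square root of F. The steps were tested on simulated data.

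Groups and library numbers came from the sample labels. Same-numbered libraries deviated together from their group means (correlations 0.55, 0.54 and 0.31, against -0.47 to 0.090 for other pairs, with a limit of 0.1), so the replicate block is given where it changes a call. Replicates differed beyond counting error (chi-square per gene 19.2 to 83.1). Positions, lengths and GC content came from GENCODE 44 on GRCh38.

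Members and lists were chosen with earlier results of these data known. Named are the 9 members, list genes that passed with or without the block, genes of lists with 5 or fewer tested, the neighbours PSMB9 and PSMB8, and the 3 genes most correlated with a called member. IRF1, CIITA, RFXAP and AL669918.1 were named after their values were seen. Some genes of the lists are not reported here. Alternatives were other scalings, filters and tools, the authors' factors, GC and length trends, the block, and each library left out.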

Additional observations from a re-analysis of the deposited data

How the results depend on the processing

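TAP1 was higher in OXA under all 19 alternatives, with log2 fold changes from 0.86 to 1.11 and an adjusted p under 0.05 in 14 of them. The exceptions were the test against a 1.5-fold change, which called 0 members and 0 list genes, and the fits without NT2, OXA1, OXA2 or OXA3. HLA-B and TAP2 (positive) and HLA-F, B2M and ERAP1 (negative) also kept their sign under all 19. With any 1 library left out, the members called higher numbered 0 to 1, the list genes called higher 0 to 9 and those called lower 0 to 2. The replicate block gave 1 member lower, 13 list genes higher and 8 lower, and changed no call of a member other than ERAP1. Removing GC and length trends gave 10 list genes higher and 5 lower, and together with the replicate block 3 members higher (HLA-B, TAP1 and TAP2), 1 lower, 23 list genes higher and 14 lower, in a fit that called 45.0% of all tested genes. Upper-quartile factors, library totals or no filter on low counts each gave 2 list genes lower, and the authors' factors gave 0. A stricter filter, at least 50 counts in 3 or more libraries, also gave 0, but it removed HLA-DPB1 before testing. The 1 list gene that DESeq2 called lower was ULBP1, not HLA-DPB1.

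HLA-E, near 0 throughout, changed sign to -0.022 with upper-quartile factors, -0.024 with library totals, -0.011 without a filter, -0.0019 with the authors' factors, -0.031 with the GC and length trends removed and -0.025 when the block was added, and ranged from -0.15 to 0.13 with single libraries left out. NLRC5 changed sign to -0.076 with the authors' factors. With single libraries left out, NLRC5 ranged from -0.0062 to 0.29, HLA-C from -0.014 to 0.34 and the heavy chain sum from -0.021 to 0.29, each negative only without NT1. The log2 ratio of TAP1 to TAP2 differed by 0.66 with the authors' values in place of raw counts. The cause of these changes was not tested. Summing several identifiers of a symbol was not run, because 0 members and 0 list genes had more than 1. Over all genes, where 381 were higher and 315 lower, the replicate block called 1664 higher and 1493 lower, DESeq2 604 and 571, removal of GC and length trends 1864 and 1252 (with the block 3624 and 2550), the authors' factors 241 and 200, upper-quartile factors 348 and 493, library totals 350 and 511 and the test against a 1.5-fold change 41 and 9. With 1 library left out, 66 to 623 were higher and 19 to 571 lower. Counting error alone is 6.73% to 10.5% of the count of the least abundant member in a library.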
